A study of Rattus norvegicus with 10 samples.

Results

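Collagens are the triple-helical proteins of the extracellular matrix, and each chain of the helix comes from a gene of its own. Fibrillar collagens form the fibrils that carry tension between the cells of the heart wall and its valves. Type IV collagen forms the sheet-like network of basement membranes, which surround every cardiomyocyte and capillary. The other collagens coat fibrils, form beaded filaments, span the cell membrane or sit between basement membrane and stroma.

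The collagen genes were taken from the deposited table by symbol, as Col, digits, a and digits, and 44 of the 18025 listed genes had such a symbol. The 39 that averaged 0.1 FPKM or more across the libraries were tested, among 14542 genes in all, and 5 fell under this limit. By class, 11 of the tested genes were fibrillar, 6 encoded type IV chains of the basement membrane, and 22 belonged to other types.

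The study asked what a hyperglycemic pregnancy does to the fetal rat heart, and RNA of hearts was sequenced at embryonic day 19.5 in 5 control (CON) and 5 hyperglycemic (HG) libraries, written here CON1 to CON5 and HG1 to HG5. All animals were wild-type Sprague-Dawley rats, and the dams were 3 months old. After mating, HG dams were injected on 3 consecutive days with streptozotocin (STZ), which destroys the insulin-producing cells of the pancreas, in citric acid buffer, and CON dams with the buffer. Blood glucose of HG dams, measured 7 days later without fasting, was above 16 mM. The injections and the buffer were thus shared by both groups, and direct effects of STZ on the dam or fetus cannot be told apart from those of glucose. Which dam or how many fetuses stand behind a library is not given in the sources used here, and p-values measure the spread between these libraries, which may share litters.

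FPKM are reads divided by the length of the gene and by the size of the library, so that levels of different genes can be set side by side per length. Gene reads numbered 17639895 to 18240006 per library in CON and 16672876 to 19109844 in HG. Y chromosome genes summed to between 38.0 and 44.4 FPKM in CON1, CON4, HG1 and HG3 and stayed under 1 FPKM in the other libraries, so each group mixed fetuses of both sexes. Cardiomyocyte markers summed to between 19406 and 20618 FPKM in CON and between 15543 and 18163 FPKM in HG, so that the defining markers of heart muscle were present in every library. Blood cell markers summed to between 4355 and 9238 FPKM in CON and between 3546 and 5028 FPKM in HG. CON3 stood apart in liver markers, with 34.9 FPKM of Alb, which encodes albumin, against at most 2.93 FPKM in any other library. Bulk RNA does not separate fewer cells of a type from less RNA per cell, which holds for every value that follows.

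Collagen transcripts were abundant in these hearts. Their share of all FPKM was 0.632 ± 0.0144% in the CON group and 0.605 ± 0.0244% in HG (mean ± SD of 5 libraries). In reads, which favour long transcripts, the shares were 1.63 ± 0.0391% and 1.51 ± 0.0619%. The 44 genes summed to between 2842 and 3040 FPKM in CON and between 2631 and 2907 FPKM in HG, so that the groups overlapped. A few chains made up most of this sum, since Col1a1, Col3a1 and Col1a2 held 51.5 ± 2.08% of the collagen FPKM in CON and 49.8 ± 1.17% in HG. With Col4a1 and Col4a2 the share was 75.6 ± 0.783% and 73.8 ± 0.626%. The 9 most abundant genes, which add Col6a1, Col6a2, Col5a1 and Col18a1, held 90.5 ± 0.259% in CON and 90.1 ± 0.531% in HG.

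**Figure D1:**
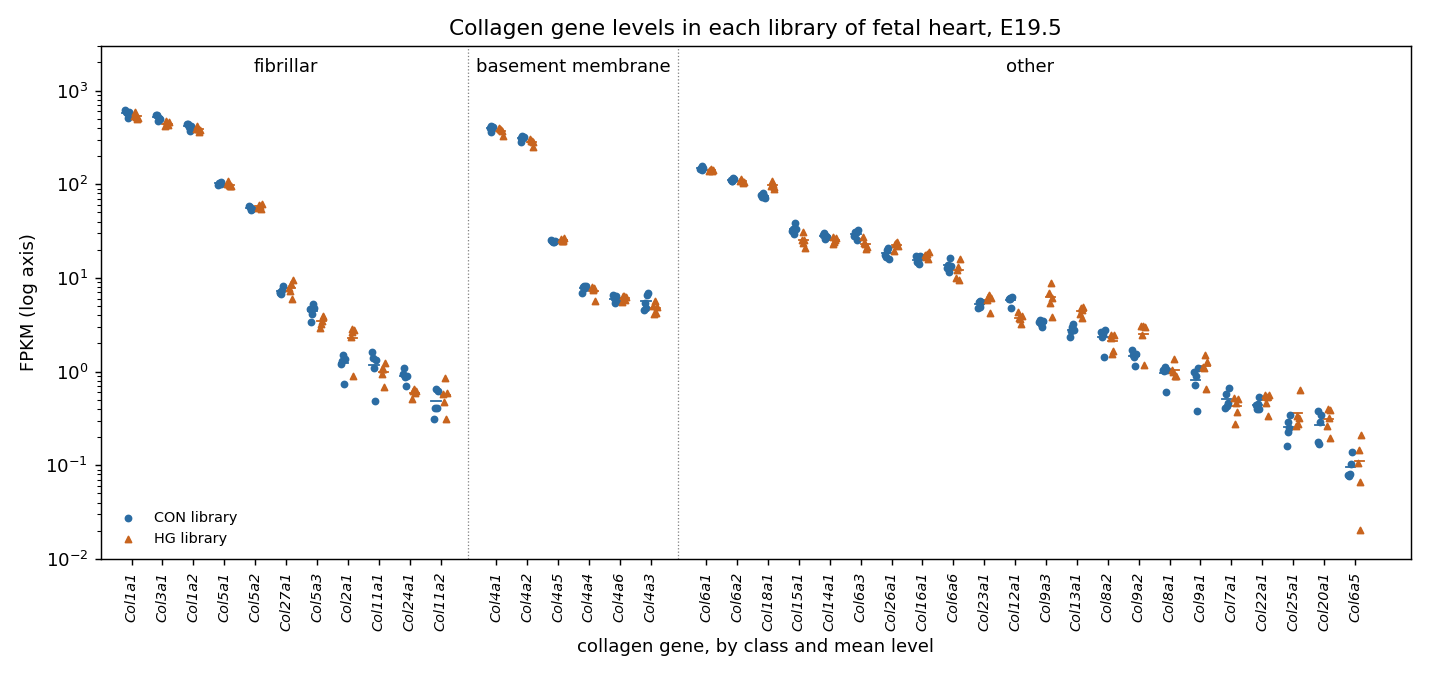
Level of each of the 39 tested collagen genes in FPKM on a log axis, with one point per library (circles, 5 CON; triangles, 5 HG) and a line at each group mean. Within each class the genes run from the most to the least abundant, from Col1a1 at a mean of 581 FPKM in CON to Col6a5 at 0.0956 FPKM.

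Of the 39 collagen genes, 6 rose and 7 fell in HG (limma on log2(FPKM + 0.1), two-sided, Benjamini-Hochberg adjusted p under 0.05 over all genes tested). These were Col9a3, Col2a1, Col9a2, Col13a1, Col18a1 and Col26a1 on the higher side and Col12a1, Col24a1, Col15a1, Col6a3, Col5a3, Col3a1 and Col14a1 on the lower side. Together they are 33.3% of the collagen genes, while 40.1% of all genes tested passed the same limit. The difference between these shares was not tested. Of all genes 28.4% were higher and 11.8% lower. At an unadjusted p under 0.05 there were 16 of the 39 collagen genes, beside 7048 of the 14542 genes tested.

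The median log2 fold change of the collagen genes was -0.05, against 0.09 for all genes tested. No collagen gene changed more than 2-fold with an adjusted p under 0.05, which 1.94% of all genes did. All 5 HG libraries lay on one side of all 5 CON libraries in 6 of the 39 genes (Col3a1, Col24a1, Col12a1, Col9a3, Col13a1 and Col18a1), and in 27.4% of all genes. The counts depended on how libraries are scaled to each other. With libraries rescaled by median-of-ratios factors, 3 collagen genes were higher and 14 lower, against 15.7% and 17.5% of all genes. The called share was then 43.6% of the collagen genes against 33.2% of all genes, the reverse of the order on the FPKM scale. Of the called collagen genes 46.2% were higher on the FPKM scale and 17.6% with these factors, and among all genes the shares were 70.7% and 47.4%. After quantile normalization, another rescaling, 3 collagen genes were higher and 8 lower. The called share was then 28.2% against 33.9% of all genes, the same order as on the FPKM scale.

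**Figure D2:**
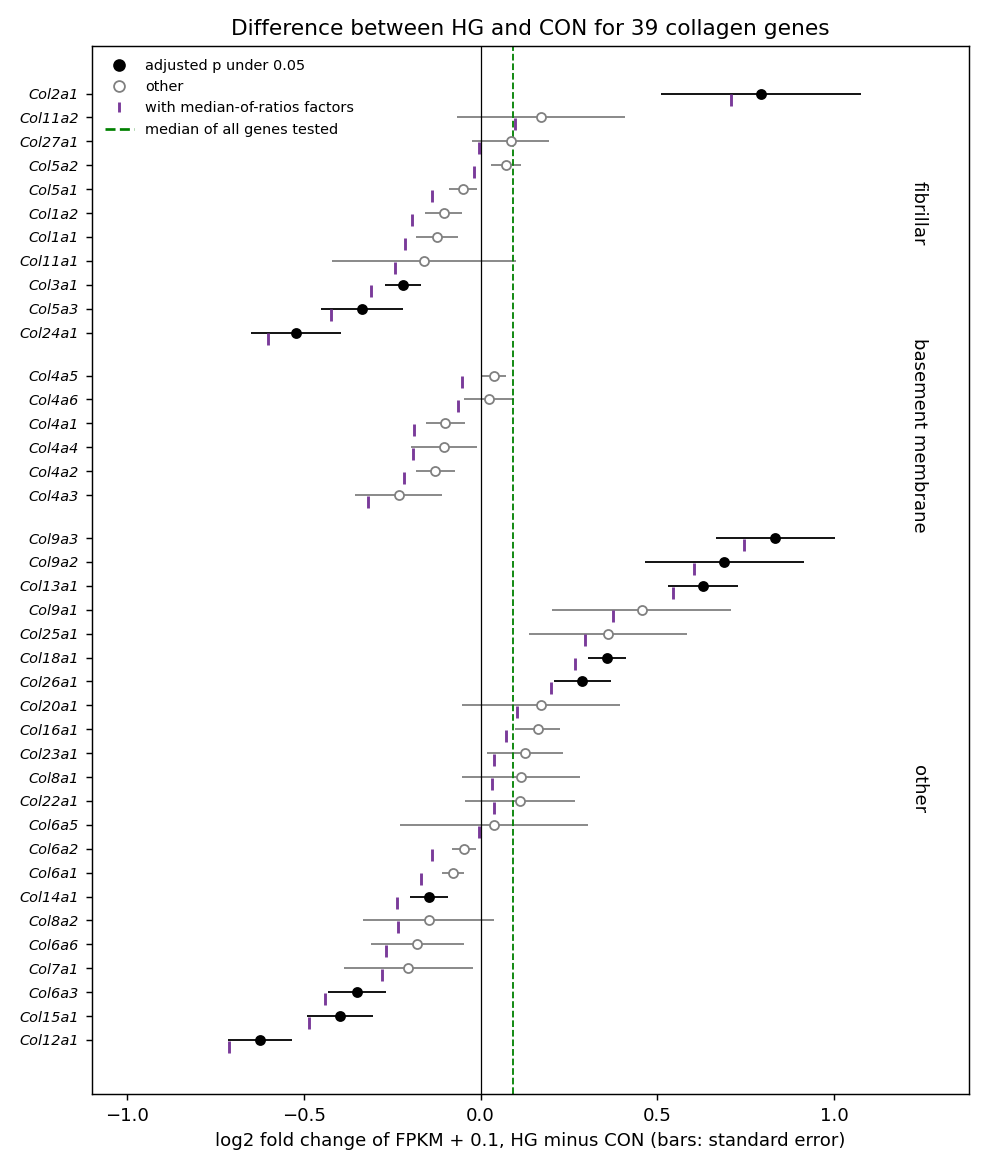
Log2 fold change of FPKM + 0.1, HG minus CON, for the 39 collagen genes, with bars for the standard error and filled points for an adjusted p under 0.05. The short vertical marks give the same value with median-of-ratios factors, which lie lower for every gene drawn, and the dashed line is the median of all genes tested at 0.09.

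Among the fibrillar chains, 3 of 11 fell and 1 rose, with a median log2 fold change of -0.10. The called share, 36.4%, was near the 40.1% of all genes. With median-of-ratios factors 6 were lower and none higher, a share of 54.5% against 33.2% of all genes. Col3a1 encodes the chain of type III collagen, which assembles with type I in the fibrils of distensible tissues. Its levels were 552.2, 555.3, 477.5, 507.5 and 501.5 FPKM in CON1 to CON5 and 418.1, 468.2, 443.9, 427.7 and 467.6 FPKM in HG1 to HG5. The highest HG library lay below the lowest CON library. The mean went from 519 ± 33.8 to 445 ± 22.8 FPKM (SD, n = 5 each), a log2 fold change of -0.22 (standard error 0.05, limma adjusted p = 0.00464).

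Col1a1 and Col1a2 encode the chains of type I collagen, the main fibril former of the heart. Col1a1 stood at 627.3, 592.5, 571.9, 515.4 and 596.1 FPKM in CON and at 542.3, 592.4, 523.0, 498.5 and 509.1 FPKM in HG. Col1a2 stood at 443.8, 438.0, 406.2, 373.2 and 422.9 FPKM in CON and at 384.7, 422.6, 387.9, 364.2 and 377.7 FPKM in HG. Library 4 was the lowest of its group for both genes in CON and in HG, and the groups overlapped. The log2 fold changes were -0.12 (standard error 0.06, limma adjusted p = 0.115) and -0.10 (standard error 0.05, adjusted p = 0.139), and neither passed the test. Both passed it with median-of-ratios factors, at log2 fold changes of -0.21 (adjusted p = 0.0200) and -0.19 (adjusted p = 0.0179). Both also passed without CON4, at adjusted p = 0.0312 and 0.0356, and Col1a1 passed without HG2 at 0.0372. Neither passed after quantile normalization. Over the alternatives the limma adjusted p reached 0.751 for Col1a1 and 0.692 for Col1a2.

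Type V collagen sits inside type I fibrils and sets their diameter. Col5a1 had a mean of 103 FPKM in CON and 99.4 FPKM in HG, and Col5a2 of 55.6 and 58.4 FPKM, with adjusted p = 0.357 and 0.196. The log2 fold change of Col5a2 was 0.07 and turned to -0.02 with median-of-ratios factors. The minor chain gene Col5a3 had 4.63, 3.42, 4.15, 5.28 and 4.81 FPKM in CON and 2.94, 3.26, 3.47, 3.97 and 3.82 FPKM in HG. CON2 lay within the HG range and the other CON libraries above it. Col5a3 fell by 0.34 on the log2 scale (standard error 0.12, limma adjusted p = 0.0364). The adjusted p was between 0.0642 and 0.0873 without any 1 of CON1, CON4, CON5, HG1, HG2 or HG3.

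Col24a1 encodes a minor fibrillar chain, which had 0.939, 1.09, 0.883, 0.708 and 0.905 FPKM in CON and 0.512, 0.617, 0.645, 0.586 and 0.620 FPKM in HG. The groups did not overlap at this low level, which rests on between 69 and 140 reads per library. The log2 fold change was -0.52 (standard error 0.13, limma adjusted p = 0.00624), and since 0.1 was added to each value it understates the change of so low a gene. Col27a1, another minor chain, had 7.33 FPKM in CON and 7.86 FPKM in HG (log2 fold change 0.08, adjusted p = 0.572, and about 0 with median-of-ratios factors).

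Fibroblasts are the main source of fibrillar collagen in the heart, and 2 of the 8 fibroblast markers examined rose while 4 fell. The called share was 75%, against 40.1% of all genes. Tcf21 and Pdgfra, which mark the fibroblast lineage, rose by log2 fold changes of 0.25 (limma adjusted p = 0.00139) and 0.29 (adjusted p = 0.00449). The matrix genes Mfap5, Dpt and Dcn fell by 1.74, 0.68 and 0.22 on the log2 scale (adjusted p = 0.00183, 0.00201 and 0.0139). Mfap5 was low, at a mean of 1.55 FPKM in CON and 0.391 FPKM in HG on 3 to 41 reads per library. Its groups overlapped, with CON4 at 0.584 FPKM and HG2 at 0.631 FPKM. The 8 markers summed to between 179.8 and 214.6 FPKM in CON and between 157.9 and 188.0 FPKM in HG, none was at 0, and the lowest sum of each group was that of library 4. The part of these cells in the collagen values was not tested.

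Chains of types II, IX and XI are known from cartilage, and the developing heart valves make some of them as well. Their transcripts were rare here, with the 6 genes summing to 8.51 ± 1.35 FPKM in CON and 13.8 ± 3.89 FPKM in HG. Col2a1 encodes the type II chain and had 1.22, 1.30, 1.51, 0.730 and 1.37 FPKM in CON and 2.36, 2.63, 2.86, 0.899 and 2.76 FPKM in HG. Of the HG libraries, 4 lay above every CON library, and HG4 lay among the CON libraries. The mean was 1.88 times as high in HG, or 0.79 higher on the log2 scale (standard error 0.28, limma adjusted p = 0.0407). The adjusted p was 0.0679 with median-of-ratios factors and between 0.0526 and 0.0953 without any 1 of CON1, CON2, CON4, CON5, HG1, HG2, HG3 or HG5. Without HG4 the log2 fold change was 1.09 (adjusted p = 0.000704).

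Type IX collagen lies on the surface of type II fibrils. Col9a3 had 3.41, 3.53, 3.22, 2.98 and 3.49 FPKM in CON and 6.98, 5.41, 8.73, 3.84 and 6.12 FPKM in HG. All HG libraries lay above all CON libraries, with HG4 next to them. The mean was 1.87 times as high in HG, or 0.83 higher on the log2 scale (standard error 0.17, limma adjusted p = 0.00197). Col9a2 had 1.71, 1.51, 1.43, 1.16 and 1.56 FPKM in CON and 3.04, 2.48, 3.04, 1.18 and 3.02 FPKM in HG, and again only HG4 fell within the CON range. Its log2 fold change was 0.69 (standard error 0.23, adjusted p = 0.0280), with an adjusted p of 0.0518 under median-of-ratios factors and between 0.0514 and 0.0689 without any 1 of CON3, CON4, HG1, HG2, HG3 or HG5. Col9a1 stood at a mean of 0.816 FPKM in CON and 1.14 FPKM in HG (log2 fold change 0.46, adjusted p = 0.174).

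Type XI chains, which form the core of cartilage fibrils, did not follow this order. Col11a1 had a mean of 1.19 FPKM in CON and 0.998 FPKM in HG (log2 fold change -0.16, limma adjusted p = 0.660), and Col11a2 of 0.483 and 0.564 FPKM (log2 fold change 0.17, adjusted p = 0.599). For all 6 genes of types II, IX and XI, HG4 was the lowest HG library, and CON4 was the lowest CON library in 5 of them.

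**Figure D3:**
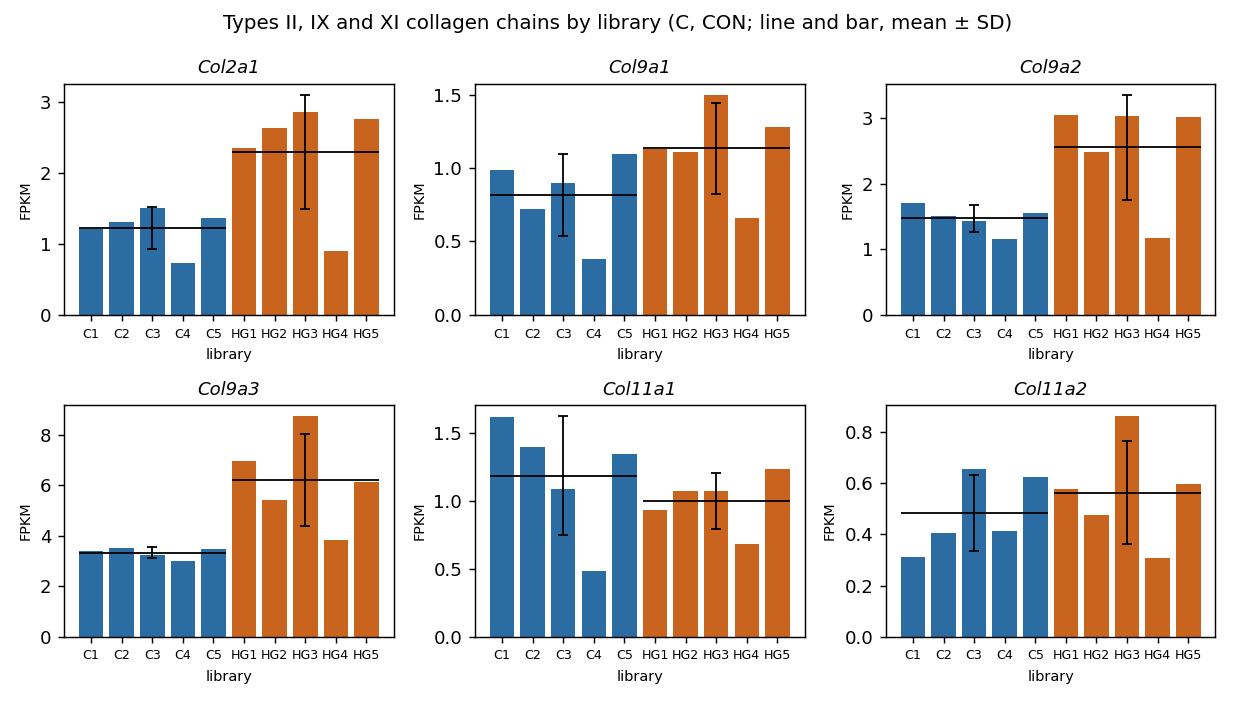
FPKM of the 6 genes of collagen types II, IX and XI in each library (bars from 0; C1 to C5, CON; HG1 to HG5), with a line and error bar for the mean ± SD of each group. HG4 is the lowest HG bar in all 6 panels, and in Col9a3 it is 3.84 FPKM, still above every CON bar.

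Of the 9 cartilage markers examined, 1 rose and 1 fell, a called share of 22.2% against 40.1% of all genes. Hapln1, a link protein that holds hyaluronan to proteoglycans, rose from between 4.80 and 6.15 FPKM in CON to between 7.95 and 13.8 FPKM in HG (log2 fold change 0.99, limma adjusted p = 0.000127). Acan, which encodes the cartilage proteoglycan aggrecan, fell from 1.44, 1.33, 1.37, 0.246 and 1.41 FPKM to 0.404, 0.572, 0.446, 0.0410 and 0.493 FPKM (log2 fold change -1.35, adjusted p = 0.0421). The adjusted p of Acan was between 0.0564 and 0.0901 without any 1 of CON1, CON2, CON3, CON5, HG1, HG3 or HG4, and 7.9e-05 without both libraries numbered 4. Acan thus went against Col2a1 and Col9a3 between the groups, although library 4 was the lowest of each group for Acan as for them. Among the other HG libraries Acan was highest in HG2, where Col9a3 was lowest, and lowest in HG1, where Col2a1 was lowest as well. None of the 9 markers was at 0 in every library, and their sum ranged from 11.2 to 14.3 FPKM in CON and from 12.4 to 23.1 FPKM in HG, lowest in library 4 of each group. The mean of this sum was 13.3 FPKM in CON and 18.5 FPKM in HG. Hapln1 alone gave 5.49 and 11.15 FPKM of it, so the higher sum in HG does not stand for the other markers. Bone markers reached at most 1.66 FPKM in any library. The part of such cells in the levels of Col2a1, Col9a2 and Col9a3 was not tested.

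Across all 39 collagen genes, CON4 was the lowest CON library in 16 (41.0%, against 19.0% of all genes) and HG4 the lowest HG library in 22 (56.4%, against 24.8% of all genes). Outside the collagens, Lum, a fibril-binding proteoglycan, was at 34.1 FPKM in CON4 and between 55.8 and 59.5 FPKM in the other CON libraries, and at 23.0 FPKM in HG4 against between 36.1 and 41.1 FPKM. Without both libraries numbered 4, which was tried after this was seen, 6 collagen genes were higher and 5 lower, against 35.6% of all genes called. Col2a1 and Col9a2 then had adjusted p = 0.000179 and 0.000260 from limma, while Col5a3 and Col14a1 no longer passed.

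None of the 6 type IV genes passed the test on the FPKM scale, which 40.1% of all genes did, and their median log2 fold change was -0.10. With median-of-ratios factors 2 of the 6 were lower and none higher, a share of 33.3% against 33.2% of all genes. Col4a1 and Col4a2 encode the chains found in nearly every basement membrane. Col4a1 stood at 394.4, 363.7, 421.5, 408.0 and 405.1 FPKM in CON and at 396.0, 384.9, 377.9, 374.8 and 327.4 FPKM in HG. Col4a2 stood at 309.8, 283.7, 330.4, 309.9 and 323.3 FPKM in CON and at 307.4, 292.2, 289.4, 285.5 and 251.4 FPKM in HG. In both genes CON2 was the lowest CON library and HG5 the lowest of all, and the groups overlapped. The log2 fold changes were -0.10 (standard error 0.05, limma adjusted p = 0.169) and -0.13 (standard error 0.06, adjusted p = 0.0860). With median-of-ratios factors both were lower in HG at adjusted p = 0.0319 and 0.0175, and Col4a2 also passed without CON2 (adjusted p = 0.0342). Neither passed after quantile normalization. Over the alternatives the limma adjusted p reached 0.815 for Col4a1 and 0.497 for Col4a2.

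Col4a1 and Col4a2 are transcribed away from each other from starts that lie 76 bases apart on chromosome 16. The sequence between the starts is shown because the chains form one trimer and their levels ran in parallel, with a ratio between 1.25 and 1.32 in all libraries. It lies at chr16:84885521-84885596 of the RefSeq annotation of GRCr8, plus strand, while the submitters' processing notes name the earlier build mRatBN7.2. Capitals mark CCGCCC, which reads GGGCGG (the GC box) on the other strand.

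Col4a1 and Col4a2, between the starts: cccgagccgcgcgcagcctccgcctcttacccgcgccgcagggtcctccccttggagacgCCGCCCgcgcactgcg

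The ratio of Col4a1 to Col4a2 was 1.28 ± 0.0230 in CON and 1.31 ± 0.0112 in HG (mean ± SD of 5 libraries, two-sided exact permutation test, p = 0.0635, adjusted p = 0.161 over 9 ratios). The other type IV genes lie in like pairs, Col4a3 with Col4a4 on chromosome 9, with 412 bases between the starts, and Col4a5 with Col4a6 on chromosome X, with 1414 bases. Col4a5 had a mean of 24.8 ± 0.412 FPKM in CON and 25.4 ± 0.898 FPKM in HG, and its coefficient of variation in CON, 1.66%, was the lowest of the 39 collagen genes. Col4a6 had 6.01 and 6.10 FPKM. The log2 fold changes of Col4a5 and Col4a6 were 0.04 and 0.02 (limma adjusted p = 0.435 and 0.812) and turned to -0.05 and -0.06 with median-of-ratios factors. Col4a3 and Col4a4, whose chains are best known from the kidney filter, stood at 5.67 and 7.83 FPKM in CON and at 4.77 and 7.32 FPKM in HG (adjusted p = 0.158 and 0.409). Col4a4 rested on 108 to 178 reads per library and Col4a3, at a lower FPKM, on 608 to 994, so the gene length used for Col4a4 was short and its rank among the collagens is uncertain.

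Of the 22 tested genes of other types, 5 rose and 4 fell, a called share of 40.9% against 40.1% of all genes. With median-of-ratios factors 3 were higher and 6 lower, again 40.9%, against 33.2% of all genes. Type XV and type XVIII collagen are close relatives, both carried by basement membranes and both ending in a fragment of the endostatin kind. They changed in opposite directions. Col15a1 had 31.3, 33.3, 29.7, 38.2 and 33.6 FPKM in CON and 25.5, 23.7, 30.9, 25.6 and 20.9 FPKM in HG. HG3 lay within the CON range and the other HG libraries below it. Col15a1 fell by 0.40 on the log2 scale (standard error 0.09, limma adjusted p = 0.00516), from a mean of 33.2 ± 3.21 to 25.3 ± 3.67 FPKM.

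Col18a1 had 77.3, 73.4, 81.3, 74.5 and 71.7 FPKM in CON and 94.8, 107.4, 101.6, 88.7 and 92.9 FPKM in HG. All HG libraries lay above all CON libraries. The mean went from 75.6 ± 3.74 to 97.1 ± 7.42 FPKM, a log2 fold change of 0.36 (standard error 0.05, limma adjusted p = 0.000280). The ratio of Col15a1 to Col18a1 in a library does not depend on its scaling, and it was 0.441 ± 0.0572 in CON and 0.261 ± 0.0376 in HG, without overlap. Its difference was -0.76 on the log2 scale (two-sided exact permutation test, n = 5 each, p = 0.00794, the smallest that 5 libraries against 5 allow). Over the 9 ratios tested the adjusted p was 0.0714, which does not pass, and with 1 ratio at the smallest p it could not have been lower.

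**Figure D4:**
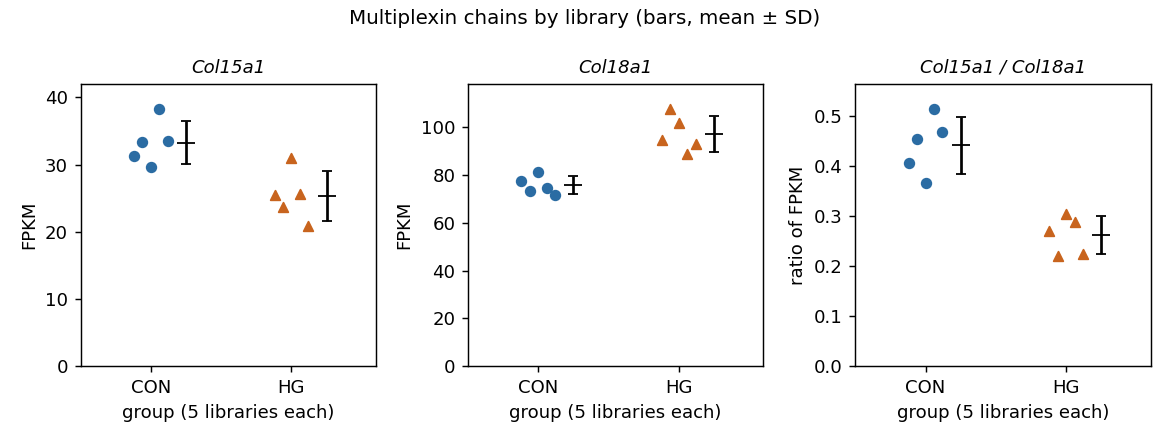
FPKM of Col15a1 and Col18a1 and the ratio of both in each library (circles, 5 CON; triangles, 5 HG), with bars for the mean ± SD and axes from 0. Col15a1 lies lower and Col18a1 higher in HG, and the ratio falls from a mean of 0.441 to 0.261 with no overlap.

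The bases before the annotated starts of both genes are shown because the genes moved apart. They cover 120 bases each in GRCr8 (RefSeq), at chr5:66297426-66297545 for Col15a1 and at chr20:11473525-11473644 for Col18a1, both on the plus strand. Capitals again mark CCGCCC, of which the stretch of Col18a1 holds 3 and that of Col15a1 none. Neither stretch holds TATAAA or CCAAT on either strand.

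Col15a1, before the start: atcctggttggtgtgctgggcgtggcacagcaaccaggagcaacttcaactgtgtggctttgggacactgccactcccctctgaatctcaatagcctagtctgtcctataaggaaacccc
Col18a1, before the start: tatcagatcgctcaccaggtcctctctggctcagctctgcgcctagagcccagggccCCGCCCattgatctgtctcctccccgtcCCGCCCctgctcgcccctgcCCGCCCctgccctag

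Of the 39 collagen genes, 30 had a promoter in the RefSeq table used, and 250 bases before the start were searched on both strands. GGGCGG was found in 19 of them (63.3%, against 32.4% of 27457 promoters), CCAAT in 7 (23.3%, against 34.3%) and TATAAA in 2 (6.67%, against 13.1%), the promoters of Col1a2 and Col13a1. The promoters of Col4a1 and Col4a2 overlap and hold the same letters in part. These matches are a description of the letters in the window.

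Endothelial cells and mural cells border the basement membranes of vessels. Of 8 endothelial markers 2 rose, Emcn (log2 fold change 0.29, limma adjusted p = 0.00278) and Tie1 (0.20, adjusted p = 0.00970, and 0.146 with median-of-ratios factors), and none fell. With these factors 1 was higher and 1 lower, the latter being Pecam1 (log2 fold change -0.15, limma adjusted p = 0.0176). Of 8 smooth muscle and pericyte markers 3 rose and 2 fell, with Cnn1, Acta2 and Tagln of the contractile apparatus at log2 fold changes of 0.91, 0.32 and 0.47 (adjusted p = 2.4e-05, 0.00341 and 0.00784) and the pericyte genes Cspg4 and Rgs5 at -0.29 and -0.31 (adjusted p = 0.000887 and 0.00456). The called shares were 25% of the endothelial markers and 62.5% of the smooth muscle and pericyte markers, against 40.1% of all genes. The endothelial sum ranged from 343 to 386 FPKM in CON and from 366 to 409 FPKM in HG, and the smooth muscle and pericyte sum from 789 to 911 and from 996 to 1250 FPKM. Acta2 made up most of the latter, with a mean of 538 of 873 FPKM in CON and 673 of 1102 FPKM in HG. Myh11 of the same list was not called (limma adjusted p = 0.183). None of these markers was at 0, and their part in the values of Col4a1, Col4a2, Col15a1 and Col18a1 was not tested.

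Type VI collagen forms beaded filaments around cells from 3 main chains. Col6a1 had 146.3, 148.7, 143.8, 156.5 and 150.3 FPKM in CON and 138.4, 143.0, 144.4, 139.5 and 140.7 FPKM in HG. The groups touched only in CON3 and HG3. Its log2 fold change was -0.08 (standard error 0.03, limma adjusted p = 0.0667), and -0.17 with median-of-ratios factors (adjusted p = 0.00181). Col6a2 had a mean of 111.5 FPKM in CON and 107.9 FPKM in HG (adjusted p = 0.309, and 0.0145 with these factors). Neither gene passed after quantile normalization.

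Col6a3 had 28.1, 30.6, 30.4, 25.2 and 32.8 FPKM in CON and 27.1, 23.8, 22.9, 20.2 and 21.4 FPKM in HG. The groups overlapped through CON4, the lowest CON library, and HG1, the highest HG library. Col6a3 fell by 0.35 on the log2 scale (standard error 0.08, limma adjusted p = 0.00538). Per library, Col6a3 was 0.198 ± 0.0226 of Col6a1 in CON and 0.164 ± 0.0196 in HG (two-sided exact permutation test, n = 5 each, p = 0.0476, adjusted p = 0.161 over 9 ratios). Col6a1 against Col6a2 was 1.34 ± 0.0284 in CON and 1.31 ± 0.0393 in HG (exact permutation test, p = 0.246). Of the related genes, Col6a6 stood at 13.6 and 12.2 FPKM (adjusted p = 0.304) and Col6a5 at 0.0956 and 0.110 FPKM (adjusted p = 0.924), with a sign that changed with the scaling.

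Fibril-associated collagens lie along fibrils and tie them to their surroundings. Col12a1, whose product decorates type I fibrils in tissue under load, had 6.02, 6.12, 5.93, 4.84 and 6.32 FPKM in CON and 4.29, 3.76, 3.61, 3.24 and 3.89 FPKM in HG. All HG libraries lay below all CON libraries, and library 4 was the lowest of each group. The mean went from 5.85 ± 0.585 to 3.76 ± 0.387 FPKM, a log2 fold change of -0.62 (standard error 0.09, limma adjusted p = 0.000217), which was the largest decrease of a collagen gene in this fit. Col14a1, its relative on the same fibrils, had a mean of 28.1 FPKM in CON and 25.4 FPKM in HG and fell by 0.15 on the log2 scale (adjusted p = 0.0443). That call ended without any 1 of CON1, CON2, CON4, CON5, HG1, HG3 or HG4, with adjusted p between 0.0575 and 0.102.

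Col16a1, another member of this group, went the other way without passing, with 15.6 FPKM in CON and 17.5 FPKM in HG (log2 fold change 0.16, limma adjusted p = 0.0631). It passed without any 1 of CON1, CON5 or HG4, with adjusted p between 0.0333 and 0.0421. Col20a1 and Col22a1 were at 0.271 and 0.444 FPKM in CON and at 0.313 and 0.492 FPKM in HG (adjusted p = 0.579 and 0.600).

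Transmembrane collagens sit in the cell surface and shed their outer part. Col13a1, found at cell junctions, had 2.32, 2.70, 3.02, 3.25 and 2.79 FPKM in CON and 4.10, 4.72, 4.54, 3.78 and 4.87 FPKM in HG. The groups did not overlap, although CON4 was here the highest CON library. The mean was 1.56 times as high in HG, or 0.63 higher on the log2 scale (standard error 0.10, limma adjusted p = 0.000405). Col23a1 had 5.27 FPKM in CON and 5.81 FPKM in HG (adjusted p = 0.383, and 0.0243 without HG4). Col25a1 had 0.255 and 0.365 FPKM (adjusted p = 0.223), with HG5 at 0.638 FPKM far above the other libraries.

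Col26a1, a collagen first described in the gonads, rose by 0.29 on the log2 scale (standard error 0.08, limma adjusted p = 0.0130), from 18.3 ± 2.07 to 22.3 ± 1.91 FPKM. Its libraries overlapped, and the call ended with median-of-ratios factors (log2 fold change 0.20, adjusted p = 0.0786). The short-chain collagens Col8a1 and Col8a2, which form lattices under endothelia, stood at 0.959 and 2.35 FPKM in CON and at 1.04 and 2.10 FPKM in HG (adjusted p = 0.617 and 0.560). Col7a1 of the anchoring fibrils of skin had 0.507 and 0.430 FPKM (adjusted p = 0.402).

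The 5 genes under the limit of 0.1 FPKM were not tested. Col17a1, a hemidesmosome collagen of epithelia, had between 0.0447 and 0.0956 FPKM in CON and between 0.103 and 0.161 FPKM in HG, on 5 to 17 reads per library. Col6a4 had between 0.0435 and 0.176 FPKM over all libraries. Col19a1 and Col28a1 were each listed at 0 in some libraries and had at most 8 reads. Col10a1, which marks hypertrophic cartilage, had 1 read in HG4 and 0 in the other libraries.

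Collagen chains are hydroxylated, glycosylated and folded in the endoplasmic reticulum before they are secreted. Of 17 tested genes of this step, 6 rose and 2 fell, with a median log2 fold change of 0.04. The called share, 47.1%, was near the 40.1% of all genes. The prolyl hydroxylases P3h2 and P4ha3 and the peptidyl-prolyl isomerase Fkbp10 rose by 0.47, 0.40 and 0.33 on the log2 scale (limma adjusted p = 8.9e-05, 9.9e-05 and 0.000103). The prolyl hydroxylase P4ha2 and the collagen chaperone Serpinh1 fell by 0.32 and 0.21 (adjusted p = 0.00124 and 0.00335, the latter 0.129 after quantile normalization). Serpinh1 was the most abundant of them, with a mean of 680 ± 24.9 FPKM in CON against 588 ± 34.9 FPKM in HG and no overlap. With median-of-ratios factors 4 of the 17 were higher and 4 lower.

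Outside the cell, propeptides are cut off and lysine residues are oxidized so that fibrils cross-link. Of 12 tested genes of this step, 3 rose and 1 fell, with a median log2 fold change of -0.01. The called share, 33.3%, was near the 40.1% of all genes. The lysyl oxidase genes Loxl3 and Loxl2 rose by 0.56 and 0.50 on the log2 scale (limma adjusted p = 0.000401 and 0.000821), with Loxl2 going from 18.0 ± 0.979 to 25.7 ± 3.61 FPKM. Pcolce, which enhances the cutting of the propeptide, rose by 0.18 (adjusted p = 0.0353, and 0.323 with median-of-ratios factors), and its adjusted p was between 0.0548 and 0.0814 without any 1 of CON2, CON4, CON5, HG1 or HG3. The propeptidase gene Adamts2 fell by 0.28 (adjusted p = 0.00552). Lox itself stood at 13.1 ± 3.59 and 9.95 ± 1.96 FPKM (log2 fold change -0.36, adjusted p = 0.184), with CON4 and HG4 at 7.10 and 7.12 FPKM. Without both libraries numbered 4 its adjusted p was 0.00542.

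Cells bind collagen through integrins, discoidin domain receptors and an endocytic receptor. Of 8 tested receptor genes, 5 rose and 1 fell, with a median log2 fold change of 0.27. The called share was 75%, against 40.1% of all genes. Itga1, Ddr1 and Mrc2 rose by 0.32, 0.37 and 0.32 on the log2 scale (limma adjusted p = 0.000438, 0.000539 and 0.00295), without overlap of the groups. Itga11, an integrin chain for fibrillar collagen, fell by 0.82 from 0.739 ± 0.198 to 0.369 ± 0.0621 FPKM (adjusted p = 0.00388). The receptors summed to between 252 and 265 FPKM in CON and between 287 and 301 FPKM in HG, most of it from Itgb1. Itgb1 rose by 0.12 (adjusted p = 0.00800) and was no longer called with median-of-ratios factors (adjusted p = 0.518).

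**Figure D5:**
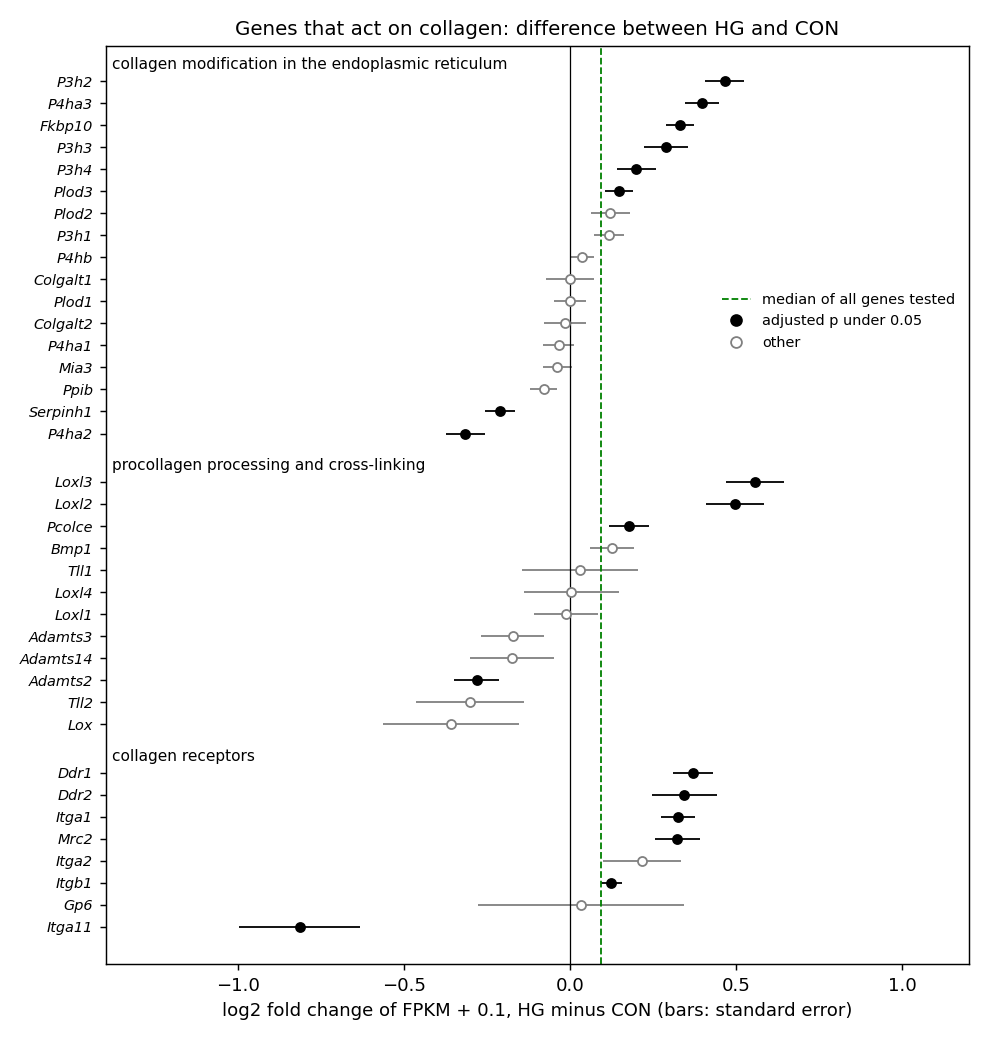
Log2 fold change of FPKM + 0.1, HG minus CON, for tested genes that modify, process or bind collagen, in 3 groups, with bars for the standard error and filled points for an adjusted p under 0.05. The dashed line is the median of all genes tested at 0.09, and filled points lie on both sides of 0 in every group, down to Itga11 at -0.82.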

How the data were processed

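RNA of fetal rat hearts was sequenced in 10 libraries made with a stranded kit, and the authors deposited FPKM per gene in 1 table, with GO and KEGG annotation that was not used here. The authors had scaled these FPKM by the length of each gene and the size of each library. The submitters' processing notes name fastp, HISAT2, HTSeq, R 3.2.0 and the build mRatBN7.2. The strand setting of the counting is not given in the sources used here. All sample columns were used (0 unused). Heart tissue is named in the labels and the main text, isolated cardiomyocytes in a legend and pooled RNA in the methods, while the deposited values differ between the libraries.

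Python 3.11.15 was used with pandas 2.3.3 and numpy 2.4.6, scipy 1.17.1 for the tests of single ratios and matplotlib 3.10.9 for plots. Every gene's FPKM were whole multiples of the value of 1 read (tolerance 0.05), which gave the reads per library. These were used for depth and for voom. The authors' DESeq needs counts, so log2(FPKM + 0.1) was compared with limma 3.58.1 in R 4.3.3 (linear model, trend, no covariate), for genes that averaged 0.1 FPKM or more, and p-values were adjusted by Benjamini-Hochberg over all genes tested. The model was tested on simulated data. A log2 fold change on this scale understates the change of low genes. FPKM depend on the rest of the library, and median-of-ratios factors and quantile normalization were run for that reason.

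Values per library are given for Col1a1, Col1a2, Col3a1, Col4a1, Col4a2, Col6a1, Col15a1, Col18a1 and, in each class and direction, the 3 called genes with the largest log2 fold change. Genes of other lists are named up to 3 per list and direction by adjusted p. Acan, Alb, Eif2s3y, Lum, Lox, Itgb1 and the values of other genes at library 4 were chosen after their values were seen. The members and the lists (collagen modification, processing, receptors, and markers of fibroblasts, endothelium, smooth muscle and pericytes, cardiomyocytes, epicardium, cartilage, bone, skeletal muscle, lung and liver, blood and the Y chromosome) were chosen with earlier results of these data known. Crtap, Pcolce2, Pax7, Sftpb and Nkx2-1 were not analysed here, and 1 further marker list is not reported here. As alternatives, both scalings were run, as were pseudocounts of 1 and 0.01, a filter at 1 FPKM and none, voom, Y chromosome genes as a covariate, the replicate number as a block, and each library left out in turn. Leaving out both libraries numbered 4 was added after the data were seen.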

Additional observations from a re-analysis of the deposited data

Results flagged for a closer look

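Groups of 5 libraries were checked for a library whose gap to the nearest other one exceeded 0.71 of the group's whole range. In independent groups, chance alone gives about 1 in 20. The groups checked share the same 10 libraries, so that rate is only a rough guide. Of 96 groups checked, 6 (6.25%) held such a library. Library 4 was the low one in 3 of these. Col2a1 was at 0.899 FPKM in HG4 and between 2.36 and 2.86 FPKM in the other HG libraries. Col12a1 was at 4.84 FPKM in CON4 and between 5.93 and 6.32 FPKM in the other CON libraries. Col8a1 was at 0.604 FPKM in CON4, against between 1.01 and 1.11 FPKM.

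Col4a4 was low in a library of each group, at 6.85 FPKM in CON1 against between 7.87 and 8.26 FPKM, and at 5.62 FPKM in HG5 against between 7.50 and 8.08 FPKM. Col25a1 was high in HG5, at 0.638 FPKM against between 0.262 and 0.333 FPKM in the other HG libraries.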

How the results depend on the processing

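Of the 13 called collagen genes, Col12a1, Col13a1, Col15a1, Col18a1, Col24a1, Col3a1, Col6a3 and Col9a3 passed the limma test in every alternative that tested them. Col26a1 passed in 18 of 20, Col5a3 and Col9a2 in 12 of 20, and Col2a1 and Col14a1 in 9 of 20. With median-of-ratios factors the collagen genes were 3 higher and 14 lower and all genes 2289 higher, and the class medians were -0.19 (fibrillar) and -0.19 (basement membrane). After quantile normalization 3 collagen genes were higher and 8 lower, and of all genes 2615 were higher and 2317 lower. The median of the other collagen types, 0.11, turned to -0.0471 among those with a mean of at least 1 FPKM. Signs turned with median-of-ratios factors for Col27a1 (-0.00368), Col4a5 (-0.0519), Col4a6 (-0.0642), Col5a2 (-0.0178) and Col6a5 (-0.00481), with quantile normalization for Col27a1 (-0.00206), Col4a5 (-0.0222), Col4a6 (-0.0667) and Col6a5 (-0.0781), and for Col6a5 with a pseudocount of 0.01 (-0.0676) and voom (-0.10). None of these genes was called either way. The cause was not tested.

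Leaving out 1 library gave between 4 and 8 higher and between 5 and 7 lower collagen genes, and between 0 and 1 with more than a 2-fold change, which was Col2a1 without HG4. The basement membrane median ranged from -0.132 to -0.0335, the latter without HG5. The log2 fold change of Col4a6 ranged from -0.0153 (without CON3) to 0.0578 and that of Col8a1 from -0.0259 (without CON4) to 0.168. The log2 ratio of Col4a5 to Col4a6 ranged from -0.0281 to 0.0473 and that of Col1a1 to Col4a1 from -0.0742 to 0.0176.

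The replicate numbers were not taken as pairs: over all genes, same-numbered libraries deviated together with correlations between -0.13 and 0.11, and 1 of 10 libraries correlated best with its own number. Over the collagen genes alone, CON4 and HG4 deviated together with a correlation of 0.534. This pair was picked after its low values were seen, and no other pair was computed over these genes. With the number as a block, 8 collagen genes were higher and 6 lower, and 5096 of 14542 genes in all were called. Col16a1 and Col9a1 then passed (adjusted p = 0.0299 and 0.0287) and Col14a1 did not (0.0587). For 5 pairs the smallest sign-flip p is 0.0625, so no ratio could pass. Depth limits the genes under 1 FPKM, such as Col6a5 with 3 to 30 reads per library.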

Other observations

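The counts of the marker lists stand beside 40.1% of all genes called, 28.4% higher and 11.8% lower. Of 8 cardiomyocyte markers 7 fell and none rose, led by Myh6 (log2 fold change -1.03), Tnni3 (-0.54) and Ryr2 (-0.62), with limma adjusted p = 2e-06, 4.9e-05 and 7.9e-05. Of 6 epicardial markers Tbx18 rose (log2 fold change 0.52, adjusted p = 0.00210) and Upk1b fell (-0.71, adjusted p = 0.0268), the latter with adjusted p between 0.0575 and 0.0637 without any 1 of CON1, CON2, CON3, HG1 or HG3. Of 6 blood cell markers 4 fell, among them Ahsp, Hbb and Hba-a2 (-0.73, -0.67 and -0.62, adjusted p = 0.00758, 0.0113 and 0.0258). Hba-a2 had adjusted p = 0.401 after quantile normalization and between 0.0573 and 0.0642 without any 1 of CON1, CON2, HG1 or HG5.

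Markers of tissues outside the heart were scarce. The 4 bone markers summed to at most 1.78 FPKM in any library. The 5 skeletal muscle markers summed to at most 6.36 FPKM, with Mylpf and Myog higher in HG (log2 fold change 0.99 and 0.76, limma adjusted p = 0.0108 and 0.0237). They rested on 6 to 31 and 5 to 18 reads per library. Tnnt3, the other one tested, had a mean of 2.62 FPKM in CON and 2.41 FPKM in HG (log2 fold change -0.13, adjusted p = 0.627). Myog had adjusted p between 0.0553 and 0.0621 without any 1 of CON1, CON4, HG3 or HG5. Of the lung and liver markers, Sftpc was at 0 in every library except HG2, where it had 1 read. The liver genes Afp, Alb and Apoa1 were lower in HG (-3.26, -2.83 and -1.81, limma adjusted p = 0.0174, 0.0472 and 0.0485), with CON3 the highest library at a sum of 66.5 FPKM. The adjusted p of Afp was up to 0.137 over the alternatives. Without CON3 the adjusted p of Alb was 0.0753 and that of Apoa1 0.0948, and leaving out any 1 library but CON1 ended the call of Alb and any 1 but CON5 or HG3 that of Apoa1. Of the 4 Y chromosome genes, Ddx3y was higher in HG (0.81, adjusted p = 0.00613). Its level did not follow that of Eif2s3y: CON1 and CON4 had 0.453 and 0.399 FPKM of Ddx3y beside 32.1 and 31.8 FPKM of Eif2s3y, while HG2 and HG5 had 0.927 and 0.832 FPKM beside 0.0299 and 0 FPKM. The Ddx3y values can therefore not be read as expression from the Y chromosome.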
